A study of Mus musculus with 10 samples.

Results

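The dystrophin complex was examined in hearts of *Nos1ap* null embryos through 9 of its genes, chosen by name as *Dmd*, *Utrn*, *Dtna*, *Sntb1*, *Sntb2*, *Dag1*, *Sgca*, *Sgcb* and *Sgcd*, and all 9 were found among the 23195 genes of the table. The samples were polyA RNA-seq libraries of whole hearts from male embryos at embryonic day 13.5 (E13.5), 5 wild type and 5 *Nos1ap* null, all labelled as strain C57BL6/J. The null embryos carried 2 copies of an allele without exon 4 of *Nos1ap*, made by constitutive CMV-Cre deletion, so that every cell type of the heart was affected. The table holds 1 mean normalized count per gene and genotype, a normalized count being the reads of a gene after scaling by the size factor (relative depth) of its library. Values for single libraries were worked out from the printed digits of these means for genes with means under 1000, which gave values for 7 of the 9 genes, whereas *Utrn* and *Dag1* were too abundant and have group means only.

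Dystrophin ties the actin cytoskeleton of muscle cells to the basement membrane. It binds β-dystroglycan in the membrane, α-dystroglycan binds laminin outside the cell, the sarcoglycans and sarcospan form a membrane subcomplex beside dystroglycan, and dystrobrevin and the syntrophins attach to the cytoplasmic side. Through the PDZ domain of syntrophin the complex also holds neuronal nitric oxide synthase (NOS1), the enzyme to which the NOS1AP protein binds as a PDZ ligand. Loss of dystrophin causes muscular dystrophy with cardiomyopathy, as does loss of some of the sarcoglycans.

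*Nos1ap*, which checks the labels, had 144 ± 14.4 normalized counts in wild type against 39.8 ± 5.20 in null (SD, n = 5), without overlap between the groups. The estimated number of read pairs on genes was 11328233 to 14023004 per library. Cardiomyocyte markers were abundant in both genotypes, with group means of 3163 (*Ryr2*) to 128162 (*Myh7*) normalized counts in wild type for the 12 markers on the list. Wild-type library 3 stood apart, since the summed level of the 8 neuronal and glial markers with derived counts (of 12 listed) was 992 normalized counts there and 171 to 223 in the other 9 libraries. The 9 skeletal muscle markers with derived counts summed to 258 there, 63.1 to 101 in the other wild-type libraries and 80.6 to 144 in null. Among them, the skeletal muscle factor *Myod1* had 13.2 normalized counts in wild-type library 3 and at most 1.80 elsewhere. In contrast, *Tnnt3* (113 normalized counts), *Pax3* (5.03) and *Myf6* (2.01) were highest in null library 2. Null library 2 had the highest level of the erythroid transcription factor *Klf1* (92.5 normalized counts, against 10.3 to 30.1 in the other libraries). Differences that these libraries moved are also given without them, and the part of other cell types in them was not tested. Libraries were numbered from 1 to 5 within a genotype by descending size factor, because the means do not carry the replicate numbers of the labels. The methods name 5 males per genotype but no litters, and p-values measure the spread between these 10 libraries.

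*Dmd* is transcribed from several start sites, and its counts add reads of all of them. The sequences below are the 250 bases upstream of RefSeq starts on GRCm38.p6, shown for the full-length and the short *Dmd* transcript, for *Dag1* as the most abundant of the 9 genes and for *Sgca* as a muscle-restricted one. They lie at chrX:82948620-82948869 on the plus strand (full-length *Dmd*), chrX:85048045-85048294 on the plus strand (short *Dmd*), chr9:108263959-108264208 on the minus strand (*Dag1*, the upstream of its 2 RefSeq starts) and chr11:94976328-94976577 on the minus strand (*Sgca*). All are written 5′ to 3′ in the direction of transcription, with capitals marking CArG boxes and the letters GGGCGG on either strand.
Dmd full-length: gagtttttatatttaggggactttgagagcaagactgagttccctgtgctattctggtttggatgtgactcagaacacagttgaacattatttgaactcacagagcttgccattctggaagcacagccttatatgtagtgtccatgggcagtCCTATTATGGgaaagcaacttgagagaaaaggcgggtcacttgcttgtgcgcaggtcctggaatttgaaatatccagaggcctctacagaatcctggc
Dmd short: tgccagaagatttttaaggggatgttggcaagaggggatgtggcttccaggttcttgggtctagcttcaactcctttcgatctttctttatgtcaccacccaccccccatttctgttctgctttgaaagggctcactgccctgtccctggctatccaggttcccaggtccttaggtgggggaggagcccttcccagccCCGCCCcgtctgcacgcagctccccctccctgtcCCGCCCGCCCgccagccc
Dag1: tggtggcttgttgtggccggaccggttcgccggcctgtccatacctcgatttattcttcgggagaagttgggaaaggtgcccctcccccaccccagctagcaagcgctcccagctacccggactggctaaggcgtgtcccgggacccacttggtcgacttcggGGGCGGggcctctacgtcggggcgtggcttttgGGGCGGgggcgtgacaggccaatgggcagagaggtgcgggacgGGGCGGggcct
Sgca: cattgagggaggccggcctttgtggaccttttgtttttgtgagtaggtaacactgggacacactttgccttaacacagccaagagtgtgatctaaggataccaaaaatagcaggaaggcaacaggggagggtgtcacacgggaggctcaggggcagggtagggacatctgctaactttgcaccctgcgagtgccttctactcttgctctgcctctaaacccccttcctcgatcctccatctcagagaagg

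The window of full-length *Dmd* holds a CArG box, the motif bound by serum response factor, which begins 98 bases upstream of the start. A CArG box was found in 1.47% of the 32851 RefSeq windows of this length, and in 0 of the other 7 windows searched. The letters GGGCGG, a GC box bound by Sp1, were absent from the full-length *Dmd* and *Sgca* windows and from the *Utrn* window searched. They occurred 3 times upstream of the short *Dmd* transcript, where the last matches overlap, and once each for *Sgcb* and *Sgcd*. Each *Dag1* window held 3, which are the same 3 matches because these windows overlap. Of all windows, 32.7% had at least 1 match. GC content ran from 45.2% (full-length *Dmd*) to 74.8% (the downstream *Dag1* window), with a median of 52.4% over all windows. Sequences for 6 of the 9 genes were used, and *Dtna*, *Sntb1* and *Sntb2* were not searched. For *Utrn*, the window lies at chr10:12861736-12861985 on the minus strand. Starts of *Utrn* transcripts further upstream, as far as 12869365, were not searched. These matches are letters in a window and were not tested for binding.

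The 9 genes were expressed at very different levels in wild-type hearts (plot of levels per length). To compare genes, group means were divided by the length of the longest protein-coding transcript (GENCODE M21, GRCm38). *Dag1*, which encodes both dystroglycans, was the highest at 1039 normalized counts per kb. *Sgcb* (110), *Sgca* (102) and *Utrn* (92.8) followed, then *Dmd* (38.0), *Sntb1* (31.5), *Dtna* (21.2), *Sntb2* (11.9) and *Sgcd* (10.7), all in wild type and per kb. The ranges of neighbours in this order often overlapped. Wild-type ranges overlapped between *Sgcb* (101 to 124 per kb) and *Sgca* (80.3 to 118), between *Dmd* (34.6 to 41.1) and *Sntb1* (25.7 to 36.1), and between *Sntb2* (9.71 to 13.1) and *Sgcd* (7.46 to 15.01), while *Dtna* (19.6 to 22.6) overlapped neither *Sntb1* nor *Sntb2*. Compared within each library, *Dmd* was above *Sntb1* per kb in 5 of 5 wild-type and 5 of 5 null libraries, *Sgcb* above *Sgca* in 4 of 5 and 4 of 5, and *Sntb2* above *Sgcd* in 4 of 5 and 2 of 5. The order depended on the length used. With the union of exons 4 genes changed rank, *Sntb1* then standing above *Dmd*, and with the mean length of the coding transcripts 2 did, *Utrn* rising to the second rank and *Sgcb* falling to the fourth.

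**Figure D1:**
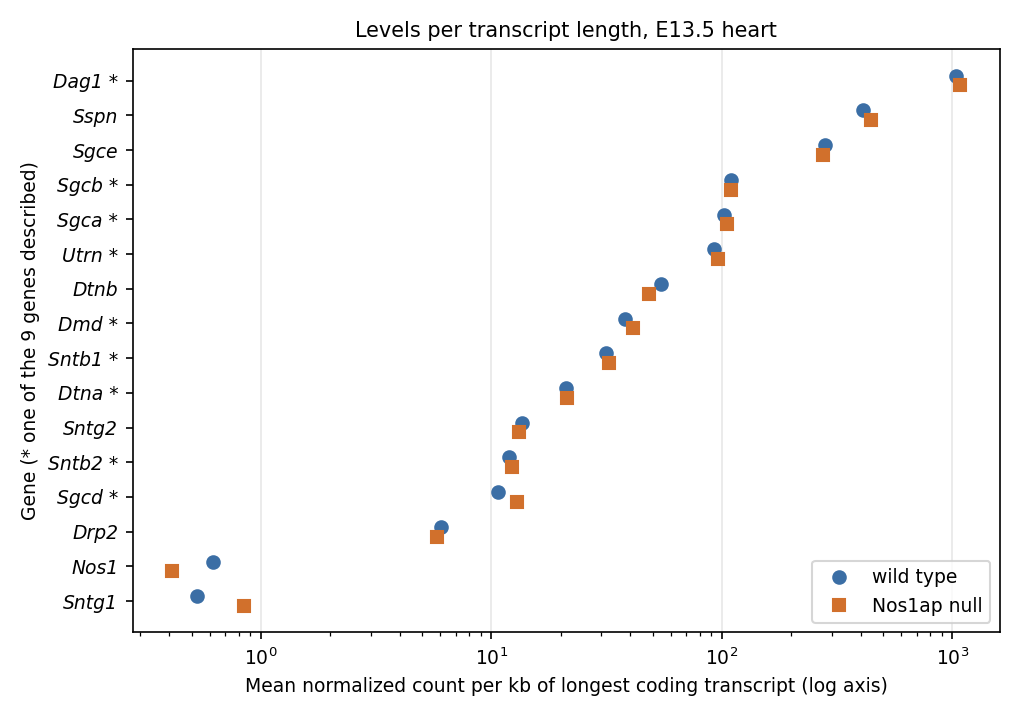
Group means of normalized counts per kb of the longest protein-coding transcript (log axis) in wild-type (circles) and *Nos1ap* null (squares) hearts, for the 9 genes (asterisks) and other genes of the complex. In wild type, levels run from 1039 per kb for *Dag1* to 0.526 for *Sntg1*, and the symbols of a gene lie close together in both genotypes except at the lowest levels; *Sgcz*, with at most 2 reads in a library, is not drawn.

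The dystrophin family was led by utrophin, the dystrophin paralog that is widespread in embryonic tissues. *Utrn*, on chromosome 10 from 12382188 to 12869365 (minus strand), had a mean of 1149 normalized counts in wild type against 1185 in null, a log2 ratio of 0.04 (1.03-fold) with no test. Per kb, *Utrn* was 2.44 times *Dmd* in wild type and 2.32 times in null, and 2.81 and 2.67 times by the mean length of the coding transcripts. *Dmd* spans 2257 kb of chromosome X (82948870 to 85206141, plus strand), and its longest transcript of 14910 bases has 79 exons, against 18 exons and 4438 bases for the short one. Gene-level counts do not separate the transcripts.

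In single wild-type libraries *Dmd* had 548, 574, 516, 613 and 582 normalized counts, and in null libraries 656, 539, 629, 653 and 597. In null, 3 libraries lay above all wild-type libraries, but null library 2 fell below 4 of the 5 wild-type values, so the groups overlapped. The means were 567 ± 36.6 in wild type and 615 ± 48.6 in null (SD, n = 5), 1.08-fold, with *P* = 0.119 by an exact two-sided permutation test. The log2 difference from limma was 0.12 with a standard error of 0.058 and a 95% interval of −0.0058 to 0.24 (unadjusted *P* = 0.0608, adjusted *P* = 0.998). Without null library 2 the difference was 0.16 (limma, unadjusted *P* = 0.00590, adjusted *P* = 0.833), and without wild-type library 3 it was 0.083 (unadjusted *P* = 0.171). *Dmd* had the smallest unadjusted *P* of the 7 genes tested, and its adjusted *P* was at least 0.833 in every setting tried.

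Dystrobrevin α, the product of *Dtna*, binds dystrophin and carries syntrophins. *Dtna* had 124, 142, 128, 134 and 138 normalized counts in wild type against 145, 131, 129, 143 and 120 in null. The groups covered nearly the same range, with means of 133 ± 7.43 and 133 ± 10.4 (SD, n = 5). The 95% interval of the log2 difference ran from −0.17 to 0.18, so a change of over 1.13-fold in either direction lies outside it. The difference was −0.012 without wild-type library 3. The paralog *Dtnb* was 2.56 times as high as *Dtna* per kb in wild type. *Dtnb* had 200 ± 21.6 normalized counts in wild type against 179 ± 12.0 in null (SD, n = 5), a log2 difference of −0.16 (limma, unadjusted *P* = 0.0660, adjusted *P* = 0.998). Its highest value, 232, was that of wild-type library 3, and without this library the difference was −0.10 (unadjusted *P* = 0.218). Without null library 2 it was −0.18 (limma, unadjusted *P* = 0.0406, adjusted *P* = 0.835).

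**Figure D2:**
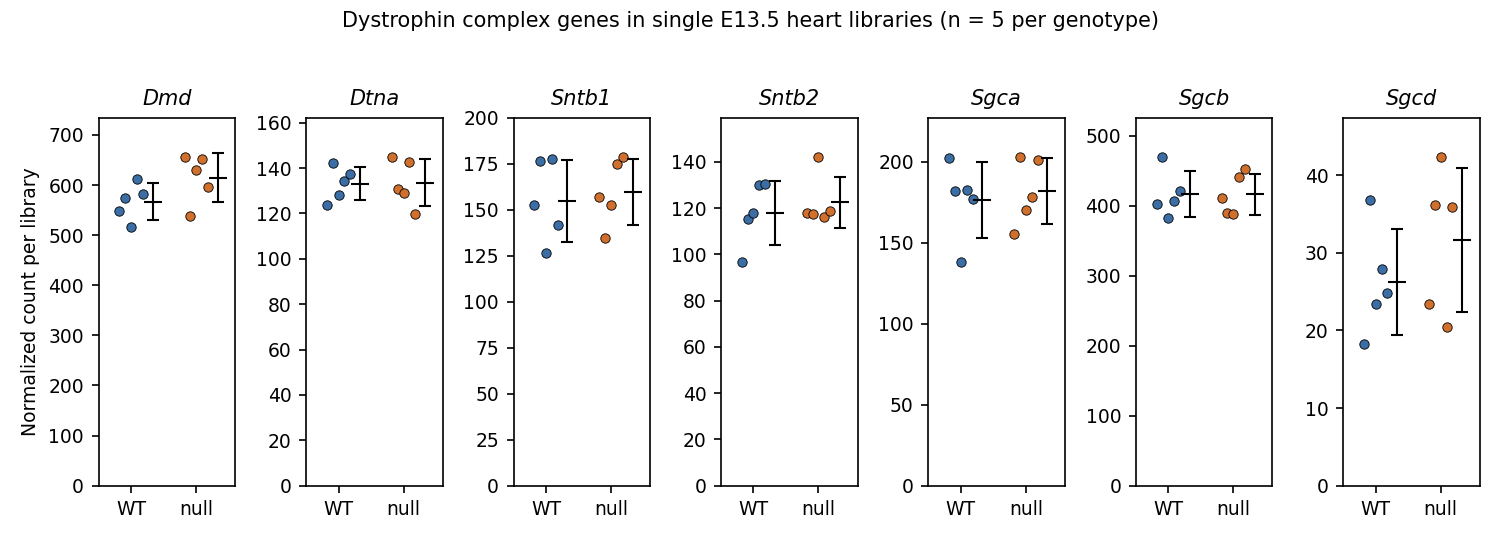
Normalized counts of the 7 genes with derived counts in each library, with the mean and SD of 5 libraries beside the points; every axis starts at 0, and the points of a genotype run from library 1 to 5. Wild-type (WT) and null libraries overlap in each of the 7 panels, and *Sgcd*, at 18.3 to 42.3 normalized counts, has the widest relative spread.

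Syntrophins are PDZ adaptors that recruit ion channels and signalling proteins to the complex. *Sntb1* (β1-syntrophin, chromosome 15 from 55636388 to 55906949, minus strand) had 152, 176, 126, 178 and 142 normalized counts in wild type against 157, 135, 152, 175 and 179 in null. The lowest value was that of wild-type library 3, and the groups overlapped from 135 to 178. The log2 difference was 0.05, with a 95% interval of −0.16 to 0.26. It was −0.023 without wild-type library 3 and 0.11 without null library 2. *Sntb2* (β2-syntrophin, chromosome 8 from 106935750 to 107019714, plus strand) had 96.6, 115, 118, 130 and 130 normalized counts in wild type against 118, 118, 142, 116 and 119 in null. Null library 3 was high and wild-type library 1 low, and the other 8 libraries lay between 115 and 130. Its log2 difference was 0.06, with a 95% interval of −0.15 to 0.26. *Sntb1* exceeded *Sntb2* by 2.65 times per kb in wild type and by 2.63 times in null. *Sntg2* was low (32.7 normalized counts in wild type, 31.7 in null) and *Sntg1* near the detection limit, with 0 to 6 reads per library.

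*Dag1* lies on chromosome 9 from 108204634 to 108263958 (minus strand). Its group means were 5884 normalized counts in wild type against 6126 in null, a log2 ratio of 0.06 (1.04-fold), and no spread between libraries is known. For comparison, the 2223 genes fitted with means of 500 to 1000 had a median limma standard error of 0.049 on the log2 scale. The ratios of *Dag1* and *Utrn* are of this size, but both genes have higher means and their own standard errors are not known. Per kb, *Dag1* was 27.3 times *Dmd* and 9.45 times *Sgcb* in wild type.

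The sarcoglycans differed widely among themselves. *Sgcb* (β-sarcoglycan, chromosome 5 from 73632749 to 73647790, minus strand) had 403, 469, 382, 407 and 421 normalized counts in wild type against 410, 389, 388, 440 and 452 in null. Both groups had a mean of 416 (SD 32.9 in wild type and 29.2 in null, n = 5), and the 95% interval of the log2 difference, −0.13 to 0.13, was the narrowest of the 7 after that of *Dmd*. The difference was −0.031 without wild-type library 3 and 0.023 without null library 2. *Sgca* (α-sarcoglycan, restricted to striated muscle; chromosome 11 from 94962791 to 94976327, minus strand) had 203, 182, 138, 183 and 177 normalized counts in wild type against 156, 203, 170, 178 and 201 in null. Wild-type library 3 was again the lowest, and the null values lay within the wild-type range except for the highest, which was 203 in both groups. Its log2 difference was 0.05 with a 95% interval of −0.16 to 0.25. It was −0.039 without wild-type library 3 and 0.0041 without null library 2.

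*Sgcd* (δ-sarcoglycan) spans 1093 kb of chromosome 11 (46896253 to 47988969, minus strand) and was the least abundant, with 19 to 42 reads per library. It had 18.3, 36.8, 23.4, 27.9 and 24.8 normalized counts in wild type against 23.4, 36.2, 42.3, 20.4 and 35.9 in null. In null, 3 libraries stood beside or above the highest wild-type library and the other 2 among the low ones. The fold of the means was 1.21, with a log2 difference of 0.25 (standard error 0.22, 95% interval −0.22 to 0.71; limma, unadjusted *P* = 0.283), so that at this depth neither an increase of 1.64-fold nor a decrease to 0.859-fold was outside the interval. Outside the set, *Sgce*, the paralog of *Sgca* found in many tissues, had 495 ± 23.2 normalized counts in wild type against 486 ± 43.6 in null (SD, n = 5). *Sgcz* had at most 2 reads in a library. Sarcospan (*Sspn*), for which only group means exist, was second to *Dag1* per kb (409 in wild type and 443 in null), with means of 1844 and 2000 normalized counts and a log2 ratio of 0.12.

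By limma, 0 of the 7 genes tested passed an adjusted *P* of 0.05, where 0.0291% of the 10293 protein-coding genes tested did, and 0 of 7 had an unadjusted *P* under 0.05, where 3.56% did. The ranges of the 2 genotypes overlapped for all 7, while they did not overlap for 0.787% of the genes tested. Adjusted *P* values of the 7 genes were 0.998 to 0.999, and their exact permutation *P* ranged from 0.119 to 0.992 (5 libraries against 5 allow no value below 0.00794). The mean of null was above that of wild type for 8 of the 9 genes, *Sgcb* being the exception, and for 7 of the 8 with a mean of at least 50, where 50.9% of protein-coding genes with a mean of at least 50 had a higher null mean. This count depended on single libraries, most of all on wild-type library 3. Of the 7 genes with derived counts, 6 were higher in null with all libraries and 3 without that library, when *Dtna*, *Sntb1*, *Sgca* and *Sgcb* were lower. The number was 4 without wild-type library 1, 6 without null library 2 and 5 to 7 with any other library left out. An absolute log2 ratio over 0.1 was found for 1 of the 8 genes with a mean of at least 50, *Dmd*, against 16.4% of protein-coding genes with such a mean. *Sgcd*, below that mean, also exceeded 0.1. The median log2 ratio was 0.04 for the 8 genes and 0.0015 for the protein-coding genes.

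Among the 5 other genes of the complex with a mean of at least 50, 1 had a higher and 4 a lower mean in null. Their median log2 ratio was −0.022 over all 10, and 0 of 6 tested passed. Markers of other cell types also differed between the group means. Of the 9 erythroid markers with a mean of at least 50, 8 were higher in null, with a median log2 ratio of 0.40 and summed means of 224566 normalized counts in wild type against 318597 in null for the 10 listed. All 5 smooth muscle markers were lower in null (median −0.071), as were the 6 neuronal and glial markers with such a mean (median −1.98). Where single libraries are known, wild-type library 3 held the high values. The 8 neuronal and glial markers with derived counts summed to 992 there, at most 223 in the other wild-type libraries and 171 to 214 in null. The 1 such smooth muscle marker had 206 there, at most 69.1 in the other wild-type libraries and 28.3 to 64.8 in null. *Stmn2*, *Tubb3*, *Nefm* and *Nefl* have group means only. By limma, 0 of 2 erythroid, 0 of 1 smooth muscle and 0 of 6 neuronal and glial markers tested passed, and the part of these cell types in the values of the 9 genes was not tested. Fewer cells of a type and less RNA per cell cannot be told apart in such whole-heart libraries.

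**Figure D3:**
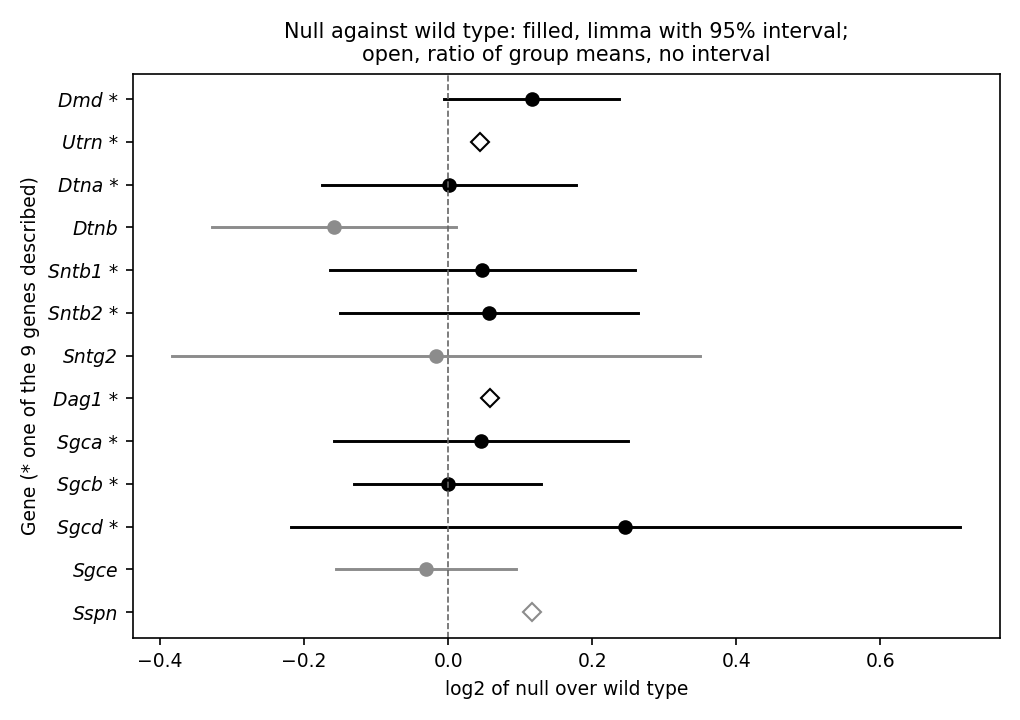
Difference between null and wild type on the log2 scale for the 9 genes (black, asterisks) and other genes of the complex (grey), as limma estimates with 95% intervals (filled) or as ratios of group means where single libraries are not known (open). Each interval drawn includes 0, and that of *Dmd*, from −0.0058 to 0.24, reaches it only at its lower end.

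Some deviations were shared between genes within a library (map of deviations). Wild-type library 3, with the neuronal markers, was the lowest of its group for *Dmd*, *Sntb1*, *Sgca* and *Sgcb*, 4 of the 7 genes, with a median log2 deviation of −0.13 from the group mean. The same library was the highest of its group for *Dtnb*, for *Drp2* (67.2 normalized counts, against 26.9 to 41.3 in the other wild-type libraries), a dystrophin relative of Schwann cells, and for *Nos1*. *Nos1* had 20.4 normalized counts in this library, 1.74 to 3.10 in the other wild-type libraries and 2.02 to 6.30 in null. The group means of *Nos1*, 6.24 in wild type and 4.17 in null, became 2.71 and 4.17 without library 3, which turned the log2 ratio from −0.58 to 0.62 at these few reads. In null library 2, with the high *Klf1* level, *Dmd* and *Sntb1* were the lowest and *Sgca* the highest of the group.

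**Figure D4:**
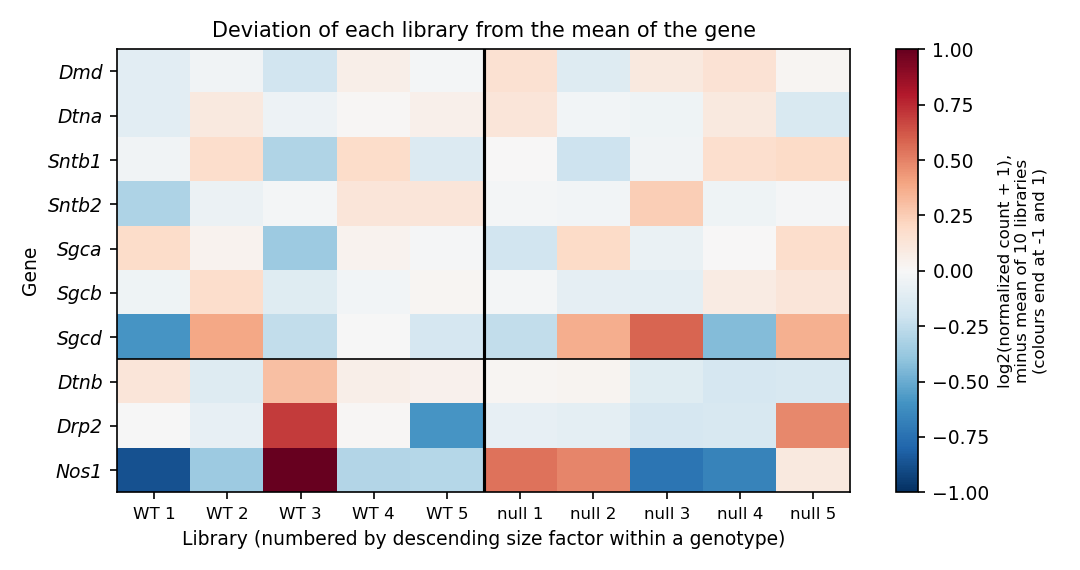
log2(normalized count + 1) of each library minus the mean of the gene over 10 libraries (red higher, blue lower), for the 7 genes above the line and *Dtnb*, *Drp2* and *Nos1* below it. Wild-type library 3 (WT 3) is low for *Sgca* (−0.36), *Sntb1* (−0.30) and *Dmd* (−0.19) and high for *Nos1* (2.09, beyond the colour scale) and *Drp2* (0.70).

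Genes around the complex were followed as lists, whose medians cover members with means of at least 50. Of the 19 genes measured that act in the glycosylation of dystroglycan, some by making sugar donors, 0 of 18 tested passed. Their median log2 ratio was −0.033 (7 higher and 12 lower in null). *Pomgnt1*, an N-acetylglucosaminyltransferase, had the highest mean (1005 normalized counts in wild type against 976 in null). The largest ratios were 0.20 for *Ispd*, which makes the CDP-ribitol donor (adjusted *P* = 0.998 from limma), and −0.19 for *Gmppb*, which makes GDP-mannose (193 and 169 normalized counts; limma, unadjusted *P* = 0.0179, adjusted *P* = 0.998). Of the matrix ligands and basement membrane genes, 13 of 14 had a higher mean in null, with a median log2 ratio of 0.08 and 0 of 6 tested passing. *Hspg2* (perlecan) was the highest at 18968 normalized counts in wild type against 19833 in null (log2 ratio 0.06), and the largest ratios were 0.18 for *Lama1* and 0.11 for *Nid2*. For partners of the complex, 0 of 6 tested passed and the median was 0.01, with *Flna* the highest (7798 and 7869 normalized counts) and *Synm* (0.16) and *Fgf13* (−0.14) the farthest from 0. For the parallel integrin linkage, 0 of 3 tested passed and the median was 0.04. *Itgb1* had the highest means (9272 and 9651), and *Lims2* (0.21) and *Lims1* (0.09) the largest ratios.

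Over the 10 libraries, the genes whose log2 level was most like that of *Dmd*, the most abundant gene of the set with derived counts, were *Rhobtb3* (Pearson r = 0.94), *Rassf8* (0.93) and *Man2b1* (0.91), the highest of 8381 protein-coding genes compared. With so many genes and 10 libraries, high values are a description of these libraries.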

How the data were processed

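PolyA RNA was sequenced from 10 E13.5 hearts. The authors trimmed reads (Trimmomatic), aligned them to GENCODE release M10 transcripts on GRCm38 with STAR within RSEM, divided gene counts by DESeq size factors and averaged them by genotype. The signal values that the authors deposited are these mean normalized counts. The fold change and p-value columns hold the authors' own comparison and were not used.

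Single-library counts were derived here. The smallest means give the step of 1 read in each library, and whole counts matching a mean to its 15 printed digits were searched near equal expression by lattice reduction. A set was kept where at most 0.01 others were expected as near. This settled 98.7% of wild-type and 98.8% of null means under 1000, and favours genes with even counts. The search and the test were checked on simulated data.

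Protein-coding genes whose mean reached 10 and whose counts were derived in all libraries were tested with limma 3.58.1 (R 4.3.3; trend, robust) on log2(normalized count + 1), with Benjamini-Hochberg adjustment over all 10293. Fold changes on this scale are understated for low genes. Members and lists were chosen with earlier results of these data known. Named genes are the set, the dystrophin, syntrophin and sarcoglycan families, *Nos1*, and from each other list the most abundant gene and the 2 with the largest ratio at a mean of at least 50. Some of these are not reported here. Lists hold 155 genes, 151 of them in the table. Alternatives changed the pseudocount, the filter, the gene types, the weights (voom), the scaling, the lengths and the libraries. Positions are from GENCODE M21 (GRCm38).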

Additional observations from a re-analysis of the deposited data

Results flagged for a closer look

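Among the 34 groups of 5 libraries examined (17 genes in each genotype), 4 had a library far from the other 4, its gap to the nearest of them over 0.71 of the range. Chance alone flags about 1 in 20 groups. *Sntb2* had 142 normalized counts in null library 3, against 116 to 119 in the other null libraries. *Drp2* had 57.7 in null library 5, against 36.3 to 38.7. *Nos1* had 20.4 in wild-type library 3, against 1.74 to 3.10. *Sgcz* had 0.870 normalized counts, which is 1 read, in wild-type library 1 and 0 in the others.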

How the results depend on the processing

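0 of the 7 genes passed an adjusted *P* of 0.05 in the main limma test and in each alternative, with 3 to 4 genes called over the whole table, and the smallest adjusted *P* of the 7 was 0.833 (*Dmd* without null library 2). Signs were stable for *Dmd* (0.083 to 0.16 with libraries left out in turn) and *Sgcd* (0.13 to 0.39). They turned for genes near 0, at −0.029 to 0.039 for *Dtna*, −0.023 to 0.11 for *Sntb1*, −0.013 to 0.094 for *Sntb2*, −0.039 to 0.099 for *Sgca* and −0.031 to 0.044 for *Sgcb*, and for *Sgcb* also with libraries shifted to a common median (0.0018). In alternatives added after seeing the data, the median over the 7 genes ranged from −0.010 (without wild-type library 3) to 0.090, and 3 (without that library) to 7 of them had a higher null mean. The order by level per kb changed for 4 genes with the union of exons and for 2 with the mean transcript length, which follows from the lengths. A shift of the means to a median of 0 moved ratios by 0.0015. No paired analysis was possible because the group means carry no replicate numbers. *Utrn* and *Dag1* have no test, and for *Sgcd* 19 to 42 reads per library limit the precision.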
